A study of Mus musculus with 12 samples.

Results

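The genes described here are those with which a liver cell makes cholesterol, senses it, takes it up and moves it inside the cell, exports it and esterifies it. They were listed by name as 33 textbook genes in 5 roles, with earlier results of these data known. Of them, 30 had a probe set that named the gene alone among the 18193 genes so named on the array. All 30 were bright enough to be tested, among 11099 genes tested. The other 3 were Acat2, which condenses acetyl-CoA at the entry of the pathway, and Soat1 and Soat2, which esterify cholesterol inside cells.

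Expression was measured in the livers of 12 C57BL/6 mice by Affymetrix mouse oligonucleotide arrays, 1 array per mouse and 4 mice per group. The mice were 8 weeks old at the start and were kept on their diets for 8 weeks. The NC group ate normal chow, the MCD+HF group ate a high fat diet deficient in methionine and choline, and the MCD+HF+Met group ate that same diet with 0.1% metformin mixed in. The MCD+HF diet is a dietary model of steatohepatitis, and since it differed from chow in methionine, choline and fat together, those parts of the diet cannot be told apart. Metformin was given from the start of the diet, so its comparison concerns prevention and not reversal.

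A transcript is measured on these arrays by several short probes whose summary, the probe set's signal, is the value used here, and each array had been scaled to an average signal of 100. A signal has no unit, and signals of different genes are not compared with each other. Changes are given as differences of log2(signal + 10), which understates those of dim genes, and a gene was called when its adjusted p was under 0.05 over the 22832 probe sets tested. Every gene is represented by its brightest probe set unless another is named. Arrays of the same group correlated at 0.971 or more across probe sets, and no array was a copy of another. The ratio of 3′ to 5′ signals of the beta-actin control, a sign of RNA integrity, was 1.73 ± 0.14 on chow, 1.54 ± 0.0694 for MCD+HF and 1.73 ± 0.114 once metformin was added (SD, n = 4 each). That of Gapdh was 0.71 ± 0.0122, 0.699 ± 0.0123 and 0.757 ± 0.0451 in the same order, and the part of RNA integrity in the results was not tested.

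Cholesterol is built from acetyl-CoA through mevalonate, isoprenoids and squalene, and squalene is closed into lanosterol, which a series of enzymes trims to cholesterol. When sterols in the endoplasmic reticulum run low, Scap escorts the transcription factor SREBP-2, the product of Srebf2, to the Golgi, where it is cut free to switch on the synthesis genes; Insig proteins hold the complex back when sterols are plentiful. Liver cells remove cholesterol through Abcg5 and Abcg8 into bile and through Abca1 to lipoproteins, genes that the oxysterol receptors LXR switch on.

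Promoter sequence of the synthesis genes is shown because these genes moved in both directions, as described below. RefSeq windows of the GRCm38.p6 assembly, from 250 bases before to 50 bases after the start of transcription, were held for 25 of the 33 genes, 15 of them of synthesis. The sterol regulatory element core was searched as TCACNCCA, the NF-Y site as CCAAT and the Sp1 site as GGGCGG, each on both strands and with overlaps allowed. A gene with several windows was counted once, and as holding a motif if any of its windows did. The sterol core stood in a window of 2 of the 15 synthesis genes, Hmgcs1 and Msmo1, and also in that of Srebf2, against 4.54% of the 8999 tested genes with a window. The stretches below run 5′ to 3′ on the strand of the gene, and the capitals mark the match.
Hmgcs1, chr13:119690188-119690247, plus strand: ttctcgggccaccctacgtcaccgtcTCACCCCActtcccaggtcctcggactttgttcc
Msmo1, chr8:64733722-64733781, minus strand: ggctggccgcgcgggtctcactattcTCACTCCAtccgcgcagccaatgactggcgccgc
Srebf2, chr15:82147081-82147140, plus strand: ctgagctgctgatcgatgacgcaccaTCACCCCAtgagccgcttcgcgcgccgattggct

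CCAAT stood in a window of 14 of the 15 synthesis genes (93.3%), against 42.3% of the tested genes with a window, and Acat2 was the exception. GGGCGG also stood in 14 of the 15, against 67.7%. The CCAAT letters were held alike by synthesis genes that rose on the diet, here Cyp51 and Hsd17b7, and by those that fell, here Tm7sf2, Ebp and Sc5d. The capitals mark CCAAT or its reverse complement ATTGG. A match is a description of the letters and not evidence of binding.
Cyp51, chr5:4104698-4104757, minus strand: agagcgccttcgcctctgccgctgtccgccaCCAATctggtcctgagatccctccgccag
Hsd17b7, chr1:169969206-169969265, minus strand: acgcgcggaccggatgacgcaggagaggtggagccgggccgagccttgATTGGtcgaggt
Tm7sf2, chr19:6067865-6067924, minus strand: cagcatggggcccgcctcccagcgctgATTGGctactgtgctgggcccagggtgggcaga
Ebp, chrX:8193535-8193594, minus strand: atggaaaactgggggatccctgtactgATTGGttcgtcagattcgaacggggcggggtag
Sc5d, chr9:42264301-42264360, minus strand: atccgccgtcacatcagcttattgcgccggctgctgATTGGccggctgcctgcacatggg

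On the MCD+HF diet, most of the cholesterol synthesis genes were higher in the liver than on normal chow, while 3 enzymes late in the pathway were lower. Of the 17 synthesis genes tested, 9 rose (Hmgcs1, Mvd, Fdps, Fdft1, Sqle, Lss, Cyp51, Nsdhl and Hsd17b7), 3 fell (Tm7sf2, Ebp and Sc5d) and 5 were not called (Mvk, Pmvk, Idi1, Msmo1 and Dhcr7). Their median change was 0.70 on the log2 scale, against 0.05 over all genes tested. Over all 30 genes, 10 rose and 8 fell. The background for these counts is wide, since 27.4% of all genes tested were called higher and 20.8% lower in the same comparison. These are bulk livers, in which fewer cells of a type and less RNA per cell cannot be told apart.

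The largest rise was that of Sqle, squalene epoxidase, which makes the substrate that is closed into the sterol ring. Its signals were 133.3, 69.7, 356.6 and 72.5 in the NC mice, 485.8, 543.6, 475.1 and 496.2 in the MCD+HF mice and 1100, 485.1, 416.7 and 368 in the MCD+HF+Met mice. All MCD+HF mice lay above all NC mice, and the third NC mouse stood well above the other NC mice. The mean signal went from 158 ± 136 (SD, n = 4) to 500 ± 30.2 (SD, n = 4), a log2 change of 1.90 (standard error 0.40, adjusted p = 0.00108 from limma).

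Fdps, which makes farnesyl diphosphate, the last intermediate shared with other isoprenoids, had signals of 736, 435.3, 1065 and 463.1 in NC, 1502, 1716, 2555 and 3134 in MCD+HF and, with metformin, 3230, 1162, 894.8 and 1397. The MCD+HF mice did not overlap the NC mice, whereas those with metformin did. The log2 change on the diet was 1.74 (standard error 0.35, adjusted p = 8.6e-04). The other rises in the upper part of the pathway were those of Hmgcs1, the synthase that makes the substrate of the rate-limiting reductase (1.48, adjusted p = 5.3e-04), Mvd, which makes the isoprene unit (0.70, adjusted p = 0.00407), and Fdft1, squalene synthase (1.41, adjusted p = 6.7e-04). Between them, Mvk, Pmvk and Idi1 had log2 changes of 0.55, 0.50 and 1.08 and adjusted p-values of 0.0958, 0.064 and 0.0571.

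After squalene, Lss, which closes the ring, changed by 0.92 (adjusted p = 0.00383), and Cyp51, the lanosterol demethylase, by 1.34 (adjusted p = 3.5e-04). Hsd17b7, a ketosteroid reductase of the pathway, rose by 1.25 with a standard error of 0.16 (adjusted p = 1.6e-05), which was the smallest p among the rises of synthesis genes. Nsdhl, the sterol dehydrogenase that acts just before it, was at the edge of the threshold (0.55, adjusted p = 0.0494), and its mice overlapped those on chow. Its call was lost in 13 of 21 alternatives (highest adjusted p = 0.168), among them those without the second or the fourth NC mouse or without the second, the third or the fourth MCD+HF mouse. Msmo1, the methyl sterol oxidase, and Dhcr7, the final reductase, had changes of 0.67 and 0.36 and were not called (adjusted p = 0.115 and 0.165).

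Of the enzymes that fell, Tm7sf2 and Ebp fell furthest and varied little between mice. Tm7sf2, a sterol reductase acting after Cyp51, had signals of 953.2, 930.5, 863 and 920 in NC, 171.1, 159.4, 211.8 and 138.2 in MCD+HF and, with metformin, 216.2, 186.8, 176.6 and 177.9. No mouse on either MCD+HF diet came near the chow range. The mean fell from 917 ± 38.4 to 170 ± 30.9 (SD, n = 4 each), a log2 change of -2.38 (standard error 0.12, adjusted p = 6.3e-10).

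Ebp, the isomerase that shifts the double bond of the sterol ring, had signals of 1978, 2026, 2079 and 2059 in NC, 567.6, 636.1, 704.1 and 703.4 in MCD+HF and, with metformin, 854.6, 643.7, 619 and 906. Here too the chow mice stood apart from all others, and the log2 change on the diet was -1.63 (standard error 0.12, adjusted p = 4.1e-08). Sc5d, the desaturase that follows Ebp, fell too, with a log2 change of -0.44 (adjusted p = 0.0212). Its MCD+HF mice, between 1693 and 2068, lay below its NC mice, between 2333 and 3105, but the change was -0.13 under quantile normalization (adjusted p = 0.529), and it also lost its call without the third NC mouse or the second or the third MCD+HF mouse.

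**Figure D1:**
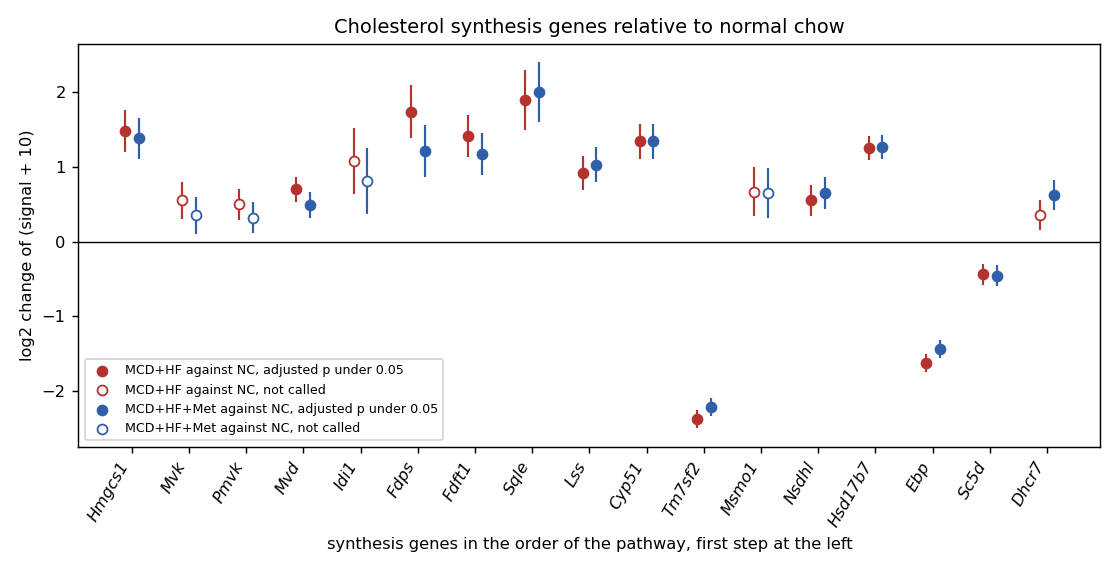
Log2 change of (signal + 10) against NC for the 17 synthesis genes in the order of the pathway, for MCD+HF (red) and MCD+HF+Met (blue), with bars of 1 standard error and filled points where the adjusted p was under 0.05. The points lie above 0 except at Tm7sf2, Ebp and Sc5d, and the red and blue points of each gene lie close together.

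The mean level of the synthesis genes, those that fell included, was even within the MCD+HF group and uneven within the others. Single genes could still vary between MCD+HF mice, as Fdps did, with signals from 1502 to 3134. The mean log2 level of the 17 genes, set to 0 at the NC mean, was 0.01, -0.37, 0.57 and -0.21 in the NC mice, 0.48, 0.55, 0.68 and 0.65 in the MCD+HF mice and 1.24, 0.39, 0.34 and 0.18 in the MCD+HF+Met mice. The third NC mouse thus lay within the MCD+HF range, and the first MCD+HF+Met mouse lay above every other mouse. That NC mouse was the highest of its group for 15 of the 17 genes (88.2%), against 23.6% of all genes tested, and that MCD+HF+Met mouse was the highest of its group for 16 of the 17 (94.1%), against 25.8%. The median SD within groups was 0.39 over the synthesis genes and 0.20 over all genes tested (log2 scale). Tm7sf2, with 0.16, and Ebp, with 0.18, were below the latter.

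**Figure D2:**
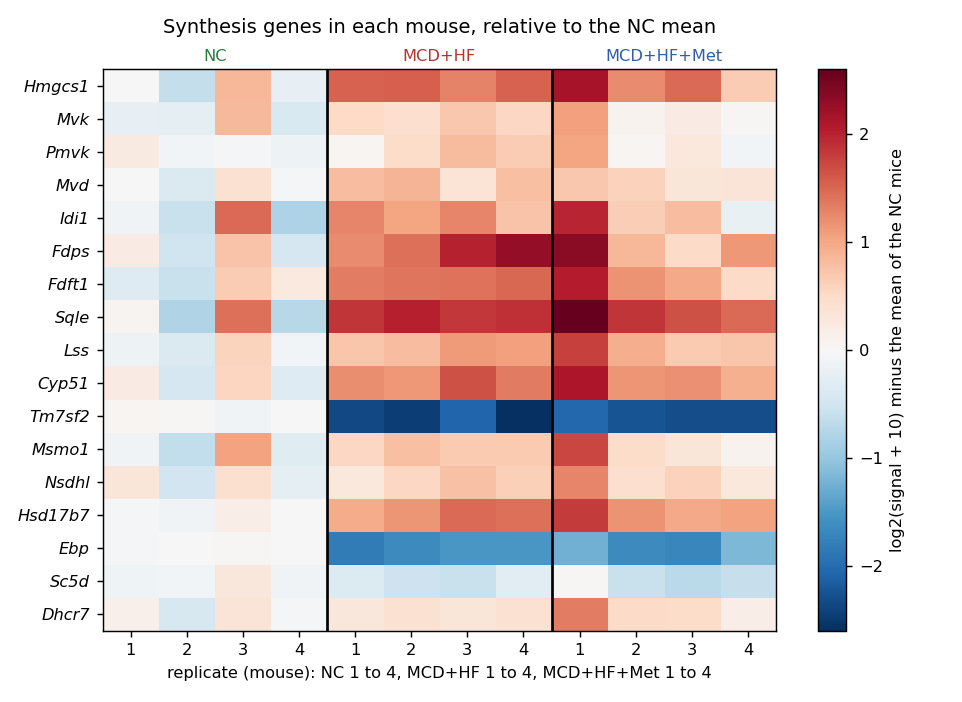
Log2(signal + 10) of each synthesis gene (rows, in pathway order) in each of the 12 mice (columns), minus the mean of the 4 NC mice, with red for higher and blue for lower. The column of NC mouse 3 is red for most genes, that of MCD+HF+Met mouse 1 is the deepest red, and the rows of Tm7sf2 and Ebp are blue in all mice on the MCD+HF diets.

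Without the third NC mouse and the first MCD+HF+Met mouse, a setting chosen after seeing the data, all 17 synthesis genes were called on the MCD+HF diet, 14 higher and 3 lower, and their median change was 1.02. The share of all genes called in this setting is not given here, so the count has no background. The third NC mouse was the highest of its group for 15 of the 17, so leaving it out by itself raises their changes. The genes that gained a call were Mvk, Pmvk, Idi1, Msmo1 and Dhcr7. Idi1, the isomerase of the isoprene unit, had signals of 427.4, 300.3, 1277 and 255.2 in NC and 1101, 934.6, 1110 and 769.2 in MCD+HF, so that a single chow mouse made the groups overlap. Its change was 1.08 with that mouse and 1.57 without both (adjusted p = 9.7e-05). On their second brightest probe sets, Idi1 and Mvk were called with all mice kept, with changes of 1.43 (adjusted p = 0.00873) and 1.55 (adjusted p = 0.00352). That probe set of Mvk was dim, with signals between 1.8 and 39.1 in NC and between 62 and 68.4 in MCD+HF.

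Of the 4 regulators, 1 was called on the MCD+HF diet, where 27.4% of all genes tested were called higher and 20.8% lower. Changes were above 0 for 3 of them and below for 1. Scap, the sterol-sensing escort, fell, Srebf2 was called only in the mice that also had metformin and then against chow, and neither Insig gene was called in the 3 comparisons. Of the 4 genes for uptake and transport within the cell, Npc2 alone was called. With 4 genes in each of these roles, such counts on the diet do not stand apart from the shares of all genes.

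Scap had signals of 592.5, 570.9, 548.3 and 731.3 in NC, 255.7, 317, 460.4 and 437.4 in MCD+HF and, with metformin, 444.3, 402.5, 354.3 and 439.3. All mice on the MCD+HF diets were below all chow mice, with a log2 change of -0.75 on the diet (standard error 0.16, adjusted p = 0.0014) and -0.56 with metformin added (adjusted p = 0.0114), both against NC. A second Scap probe set with signals of at most 46.7 gave 0.42 on the diet (adjusted p = 0.259), and the call did not hold on it.

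Srebf2, which encodes SREBP-2, had signals of 84.4, 67.5, 90 and 41.2 in NC, 96.1, 69.7, 77 and 74.4 in MCD+HF and, with metformin, 124.7, 123.7, 98.3 and 103.6. The metformin mice were above all mice of both other groups. The change was 0.18 on the diet (adjusted p = 0.444), 0.46 with metformin against MCD+HF (unadjusted p = 0.0237, adjusted p = 0.183, limma) and 0.64 with metformin against NC (adjusted p = 0.0112). Its probe sets disagreed: the second brightest was called on the diet (0.64, adjusted p = 0.0141) and gave -0.07 with metformin against MCD+HF.

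Insig1 had signals of 492.9, 393.5, 737.4 and 475 in NC, 461.9, 520.5, 550.4 and 608.8 in MCD+HF and, with metformin, 617.3, 474.7, 483.9 and 283.1. The groups overlapped throughout, and its change on the diet was 0.06 with a 95% interval from -0.38 to 0.50. Insig2 had signals of 1541, 1723, 1799 and 975.6 in NC, 1232, 1675, 2248 and 2081 in MCD+HF and, with metformin, 1349, 1803, 2179 and 4092. A single metformin mouse stood far above the rest, and the change on the diet was 0.26, with a 95% interval from -0.33 to 0.86. Against NC the change with metformin was 0.55 (adjusted p = 0.131), and 0.78 without the first MCD+HF+Met mouse, the lowest of its group (adjusted p = 0.037). Without the fourth, the highest, it was 0.25 (adjusted p = 0.418). Its probe sets disagreed in sign, as the second brightest gave -0.50 on the diet (adjusted p = 0.197) and -0.32 with metformin against NC (adjusted p = 0.434).

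Npc2, the soluble protein that hands cholesterol out of the lysosome, rose on the diet and fell with metformin. Its signals were 854.6, 809.7, 973.5 and 829.7 in NC, 1649, 1631, 1417 and 1607 in MCD+HF and, with metformin, 1132, 1107, 1259 and 1157, and the 3 groups did not overlap. The mean signals were 867 ± 73.4, 1576 ± 108 and 1164 ± 66.8 (SD, n = 4 each). The log2 change was 0.86 on the diet (standard error 0.09, adjusted p = 1.3e-06), -0.43 with metformin against MCD+HF (standard error 0.09, adjusted p = 0.0145) and 0.42 with metformin against NC (adjusted p = 0.00125). All 3 of its tested probe sets were called in the first 2 of these comparisons, with changes of 0.86, 0.70 and 1.02 on the diet and -0.43, -0.40 and -0.89 with metformin. The call with metformin was lost without the second MCD+HF mouse (adjusted p = 0.059) or the second MCD+HF+Met mouse (adjusted p = 0.0561) and after adjustment of the methods' t-test (adjusted p = 0.0967).

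Of 15 macrophage and Kupffer cell markers tested, 10 rose and 2 fell on the diet, where 27.4% and 20.8% of all genes did, and with metformin against MCD+HF 5 fell and 10 were not called, where 2.34% of all genes fell. Ctss and Lyz2, which macrophages make in quantity, rose on the diet and fell with metformin as Npc2 did (-1.26 and -1.46 with metformin). Cd14 rose on the diet and was at 0.20 with metformin (adjusted p = 0.704), while the Kupffer cell markers Clec4f and Timd4 fell on the diet (-1.36 and -1.30) and were not called with metformin. Their summed signal lay between 6200 and 7979 in NC, 11680 and 15226 in MCD+HF and, with metformin, 5589 and 9659. None was at 0 in any mouse. The part of these markers in the change of Npc2 was not tested.

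Npc1, the lysosomal membrane partner of Npc2, had signals of 369, 380.9, 408.1 and 453.5 in NC, 370.3, 277.4, 347.8 and 306.7 in MCD+HF and, with metformin, 377.9, 369, 309.1 and 266.9. It was lower on average on the diet, but the groups overlapped at their edge and it was not called (-0.30, adjusted p = 0.0632). In 3 of 21 alternatives it was called lower on the diet, among them quantile normalization (-0.35, adjusted p = 0.0291). That normalization also gave a call with metformin against NC (-0.33, adjusted p = 0.0456). Scarb1, the receptor that takes cholesterol from high density lipoprotein, had signals of 950.2, 1159, 1049 and 1008 in NC, 980.4, 827.7, 823.6 and 1027 in MCD+HF and, with metformin, 1077, 1154, 979.8 and 1046. Its change with metformin was 0.22, with an unadjusted p of 0.0405 from limma and an adjusted p of 0.236.

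Stard4, a soluble sterol carrier, had signals of 483.5, 436.5, 610.5 and 606.9 in NC, 499.7, 440.6, 371 and 479.6 in MCD+HF and, with metformin, 772.7, 723.2, 556.5 and 324.4. Of the metformin mice, 3 were above all MCD+HF mice and 1 was below them. The change with metformin was 0.34 (adjusted p = 0.412), and without that mouse 0.60 (adjusted p = 0.0431). A second probe set of Stard4 was called lower on the diet (-0.52, adjusted p = 0.0146), while the brightest was not (-0.24, adjusted p = 0.371).

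**Figure D3:**
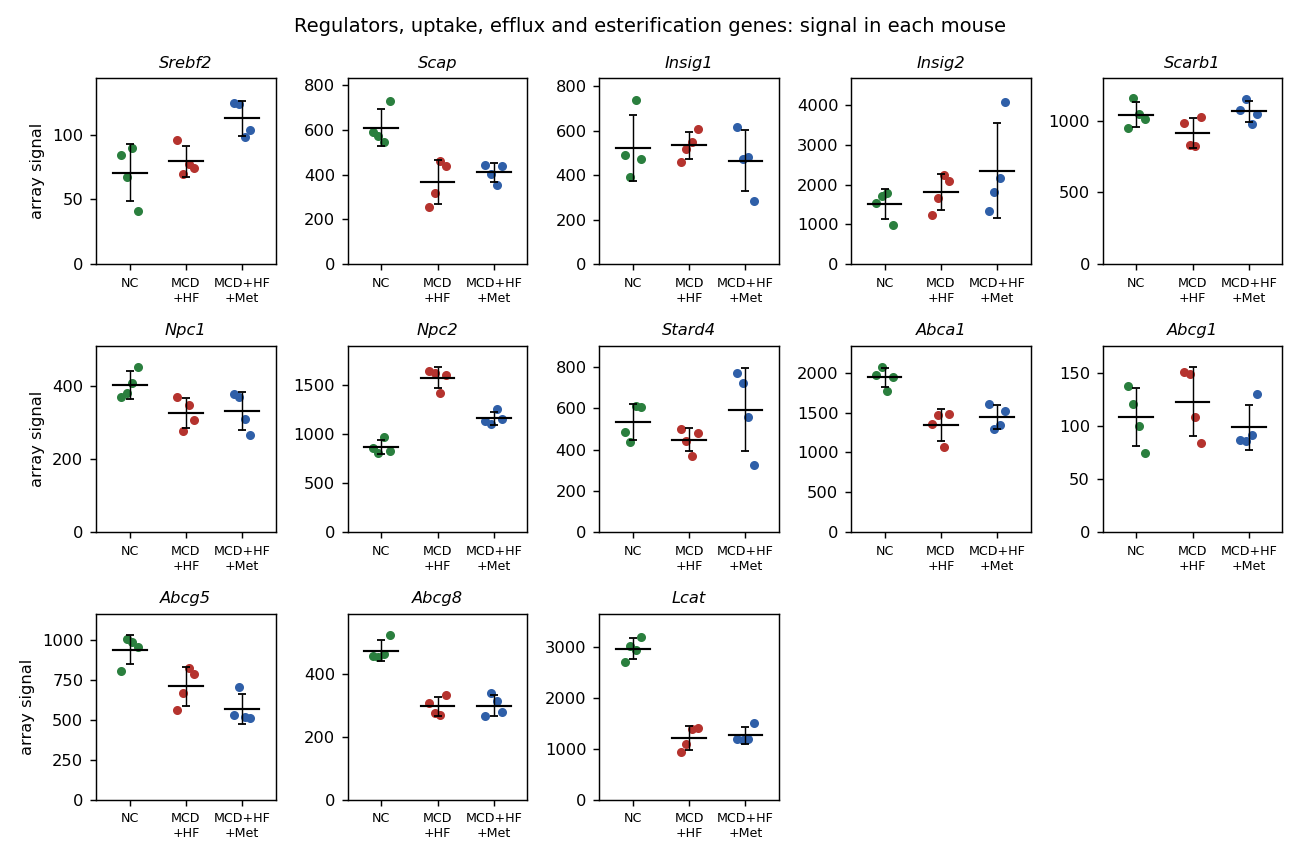
Array signal of the 13 regulator, uptake, efflux and esterification genes in each mouse (points), by group, with the group mean (long bar) and SD (error bars, n = 4) on linear axes from 0. Npc2 is the gene whose 3 groups separate, while Scap, Abca1, Abcg8 and Lcat are lower on both MCD+HF diets than on chow.

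The efflux genes fell on the diet, except Abcg1, and remained below chow with metformin. Abca1, Abcg5 and Abcg8 were called lower than NC in both diet groups, and so was Lcat, which esterifies cholesterol on lipoproteins in the plasma. None of these was called between the MCD+HF groups. Of all genes tested, 20.8% were called lower on the diet and 18.6% with metformin against NC. With only 4 efflux genes, these counts say little about the role as a whole.

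Abca1, which loads cholesterol onto apolipoprotein A-I, had signals of 1976, 2073, 1776 and 1947 in NC, 1353, 1473, 1064 and 1489 in MCD+HF and, with metformin, 1611, 1293, 1341 and 1524. All mice on the MCD+HF diets lay below all chow mice, and the log2 change was -0.54 on the diet (adjusted p = 0.00103) and -0.43 with metformin against NC (adjusted p = 0.00596). Under quantile normalization these changes were -0.32 (adjusted p = 0.0381) and -0.26 (adjusted p = 0.0916).

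Abcg5 and Abcg8 together form the sterol pump of the bile canaliculus, and they are transcribed away from each other from annotated starts only 110 bases apart. A further start of Abcg8 is annotated upstream, at chr17:84676302, beyond the start of Abcg5. The sequence between the close starts is shown because both genes have a start at its ends, Abcg5 to the left on the minus strand and Abcg8 to the right on the plus strand. It is printed on the plus strand, with no part in capitals.
Abcg5 and Abcg8, chr17:84683012-84683120, plus strand: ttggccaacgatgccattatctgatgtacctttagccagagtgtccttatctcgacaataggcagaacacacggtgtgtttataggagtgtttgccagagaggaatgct

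Abcg8 had signals of 459.1, 455, 464.3 and 526.2 in NC, 308.8, 277.4, 269.6 and 335.4 in MCD+HF and, with metformin, 268.1, 339.9, 315.4 and 280.3. The chow mice stood above all others, with changes of -0.66 on the diet (standard error 0.11, adjusted p = 1.1e-04) and -0.65 with metformin against NC (adjusted p = 1.7e-04), and 0.01 between the MCD+HF groups (95% interval from -0.21 to 0.24). Abcg5 had signals of 804.7, 1003, 987.5 and 952.8 in NC, 558.5, 666.1, 824.8 and 788.1 in MCD+HF and, with metformin, 531.1, 704.9, 517 and 513.8.

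For Abcg5, 1 of the MCD+HF mice lay within the chow range, and all metformin mice lay below it. The change of Abcg5 was -0.41 on the diet (adjusted p = 0.0217), a call lost in 7 of 21 alternatives, among them those without the second or the third NC mouse or the first or second MCD+HF mouse (highest adjusted p = 0.0785). It was -0.72 with metformin against NC (adjusted p = 4.9e-04), which held in all 21, and -0.32 between the MCD+HF groups (unadjusted p = 0.0317 from limma, adjusted p = 0.211).

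Abcg1, an exporter to high density lipoprotein that macrophages use, had signals of 138, 121, 100 and 74.2 in NC, 150.7, 148.7, 108.4 and 84.3 in MCD+HF and, with metformin, 86.6, 86, 91.6 and 130.5. The groups overlapped, and it was not called on the diet (0.17, adjusted p = 0.531). A dim second probe set, with signals between 2.3 and 15.5 in NC and between 21.4 and 35.5 in MCD+HF, was called higher on the diet (1.12, adjusted p = 8.6e-04) and with metformin against NC (0.90, adjusted p = 0.00484).

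Lcat had signals of 2718, 3021, 2945 and 3212 in NC, 943.1, 1103, 1394 and 1417 in MCD+HF and, with metformin, 1190, 1177, 1204 and 1520. The lowest chow mouse lay far above the highest mouse on either MCD+HF diet. The log2 change was -1.30 on the diet (standard error 0.13, adjusted p = 7.2e-07) and -1.22 with metformin against NC (adjusted p = 1.9e-06).

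Most hepatocyte markers fell on the diet too. Of 9 tested, 7 fell and none rose, where 20.8% and 27.4% of all genes tested did, with Alb (albumin) at -1.02 and Apoh at -1.10, and their median change was -0.99. Their summed signal lay between 88282 and 102733 in NC, 43260 and 55822 in MCD+HF and, with metformin, 48888 and 63698, and none was at 0 in any mouse. Of the markers of other cells, 8 of 9 for stellate cells and myofibroblasts rose, and so did 4 of 4 for cholangiocytes, of which Epcam and Krt19 were near 0 on chow (mean signals 6.33 and 8.58). Of 6 endothelial markers 1 rose and 1 fell. Of the lymphocyte markers, only Ptprc was bright enough to be tested, and it rose (1.23). The part of these markers in the changes of the cholesterol genes was not tested. By estimate alone, Tm7sf2 (-2.38) and Ebp (-1.63) lay below all 9 hepatocyte markers, whose lowest change was -1.45, at Fgb. The interval of Ebp, from -1.89 to -1.38, overlapped that of Fgb, from -1.79 to -1.10, so their order is not settled. That of Tm7sf2 ran from -2.63 to -2.13. Whether either gene fell further than the hepatocyte markers was not tested.

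Metformin added to the MCD+HF diet left nearly all of these genes uncalled. Of the 30 genes, Npc2 fell and no gene rose, where 2.34% of all genes tested were called lower and 1.63% higher. At an unadjusted p under 0.05 there were 4, namely Abcg5, Npc2, Scarb1 and Srebf2. None of the 17 synthesis genes reached even that, and their lowest adjusted p was 0.403. Their changes ran from -0.53 (Fdps) to 0.26 (Dhcr7) with a median of -0.02, against 0.01 over all genes tested.

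The intervals show how much the comparison could resolve. Over the synthesis genes the 95% intervals of the change with metformin ran from -1.28 to 0.94 on the log2 scale, with the widest at Idi1, Fdps and Sqle, the genes that varied most between mice. For 15 of the 17 genes the interval lay within a 2-fold change either way. For Tm7sf2 the change was 0.16, with an interval from -0.09 to 0.41, and for Ebp it was 0.19, from -0.06 to 0.45, both small beside their falls on the diet.

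The first MCD+HF+Met mouse weighed on this comparison. It was the highest of its group for 16 of the 17 synthesis genes, so leaving it out by itself lowers their changes. The share of all genes in that setting is not given here, so the counts without this mouse have no background. With all mice, 8 synthesis genes were above 0 and 9 below, and without that mouse 3 were above and 14 below, with a median of -0.26 and the lowest value at Fdps (-0.91, adjusted p = 0.121). No synthesis gene was called with metformin in either case, although 3 then had an unadjusted p under 0.05 from limma. Leaving out the third NC mouse as well did not alter the changes of the synthesis genes, since no NC mouse enters them. Only the spread estimated over the 3 groups altered. In that setting, chosen after seeing the data, 6 genes had an unadjusted p under 0.05, and the lowest adjusted p from limma was 0.0707, at Fdps.

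**Figure D4:**
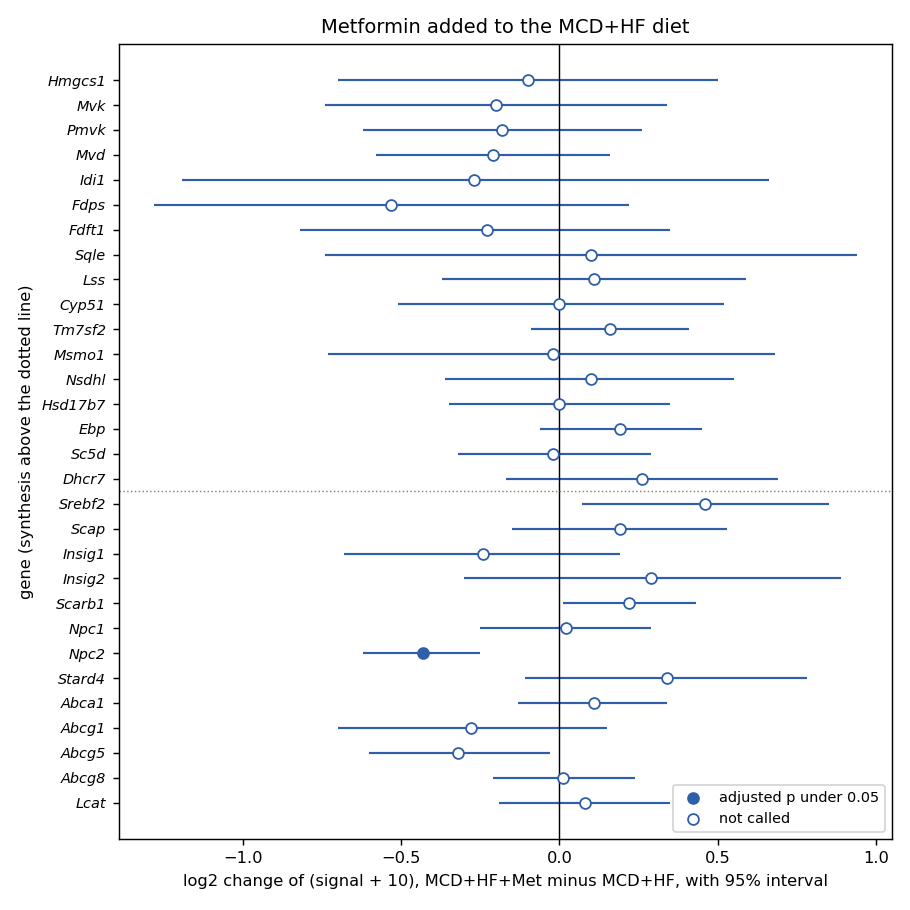
Log2 change of (signal + 10) from MCD+HF to MCD+HF+Met for the 30 genes, with 95% intervals from limma, synthesis genes above the dotted line in pathway order. Npc2 carries the filled point of a call at -0.43, the intervals of all synthesis genes include 0, and those of Srebf2, Scarb1 and Abcg5 lie to 1 side of 0 without a call.

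Set against normal chow, the livers with metformin showed 12 of the 30 genes higher and 8 lower, where 25.6% of all genes tested were called higher and 18.6% lower. This comparison shares the NC mice with that of the untreated diet and the metformin mice with the one above, so its counts are not separate evidence. Of the synthesis genes 10 rose and 3 fell, with Dhcr7 called here (0.62, adjusted p = 0.0235) beside the 9 that rose on the diet alone. Sqle was at 2.00 (adjusted p = 8.5e-04), Fdps at 1.21 (adjusted p = 0.0124), Tm7sf2 at -2.22 (adjusted p = 1.8e-09) and Ebp at -1.44 (adjusted p = 2.1e-07). Without the first MCD+HF+Met mouse 7 synthesis genes were called higher in place of 10, and the calls lost were those of Mvd, Nsdhl and Dhcr7. The same 3 calls were lost without the second NC mouse, and that of Mvd in 11 of 22 alternatives. After adjustment of the methods' t-test those 3 calls were lost, and so were those of Hmgcs1, Fdps, Fdft1, Sqle, Lss, Sc5d and Srebf2. Among the latter the highest adjusted p was 0.126, at Sc5d.

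The mice of the groups did not overlap for 15 of the 30 genes between MCD+HF and NC, 8 higher and 7 lower, where 25% and 20.1% of all genes tested stood wholly higher or lower. Between MCD+HF+Met and MCD+HF this held for 1 gene in each direction, Srebf2 above and Npc2 below, where it held for 6.42% and 6.2% of all genes. Between MCD+HF+Met and NC it held for 6 genes above and 7 below, against 22.3% and 17.3% of all genes.

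Around these genes, 40 further genes of cholesterol metabolism were listed in 5 groups, and 35 of them could be tested. On the MCD+HF diet 9 of the 35 rose and 13 fell, where 27.4% and 20.8% of all genes tested did, so that the share that rose was near the background, and with metformin against MCD+HF none was called, the nearest being Srebf1, named after its values were seen (0.69, unadjusted p = 0.00333 and adjusted p = 0.0692 from limma). The largest changes among the 35 on the diet were those of 2 oxysterol enzymes. Cyp7b1, which hydroxylates oxysterols on the way to bile acids, went from a signal of 6484 ± 989 in NC to 296 ± 73 in MCD+HF and stood at 317 ± 94.3 with metformin (SD, n = 4 each), a log2 change of -4.43 on the diet (adjusted p = 4.7e-10). Cyp27a1, the sterol 27-hydroxylase of mitochondria, changed by -1.77 (adjusted p = 3.2e-09).

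The groups are small, and their counts stand against the same 27.4% and 20.8% of all genes. Among the 14 genes of cholesterol carriage tested, 5 rose and 5 fell. Nceh1, which releases cholesterol from its esters, rose by 1.57 (adjusted p = 1.0e-07), and Apoa1, the protein that accepts cholesterol from Abca1, changed by -1.02 (adjusted p = 3.7e-07). Of the 7 genes tested that process or degrade the sterol sensors, 1 rose and 4 fell, and of the 6 tested in the branches from the isoprenoids 2 rose and none fell. Of LXR and its targets, Lpcat3 rose (0.74, adjusted p = 1.8e-05) and Nr1h3, which encodes LXR alpha, fell (-0.66, adjusted p = 0.00148), as did Srebf1 (-1.23, adjusted p = 1.2e-04), with 5 genes tested. These 3 were named after their values were seen.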

How the data were processed

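The deposited table holds linear signal intensities of 45101 probe sets, which the authors obtained from GCOS with default settings on Affymetrix Mouse Genome 430 2.0 arrays and scaled so that each array averaged 100. Groups came from the sample labels.

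Controls (64) were left out, log2(signal + 10) was computed, and probe sets whose mean signal reached 20 (22832 in all) were fitted with limma 3.58.1 in R 4.3.3 (lmFit, eBayes with a trend of the variance) in 1 model of the 3 groups (9 residual degrees of freedom), and p-values were adjusted over all of them by Benjamini-Hochberg. The fit was tested on simulated data. The platform annotation gave 34945 probe sets 1 gene symbol, 932 several and 9160 none here; 34741 symbols were updated by gene identifier from RefSeq. A gene was its brightest probe set naming it alone, an _x_at set only if there was no other.

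The genes and lists were chosen with earlier results of these data known. Signals in every mouse are given for up to 4 called genes of each role with the largest change and for every gene of the smaller roles, and 4 called genes of the wider lists with the lowest adjusted p are named. The methods' t-test was Student's, on the same log2 values, at over 1.5-fold and an unadjusted p under 0.05; their change calls were not used. Alternatives were offsets of 0 and 32, no filter or a mean signal of at least 50, quantile normalization, a replicate block, a robust or untrended variance, 2 groups only, each array left out, the t-test and other probe sets. The number of arrays limits the precision. Some genes of the pathway are left out of this account. Plots were made in Python 3.11.15 by matplotlib 3.10.9.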

Additional observations from a re-analysis of the deposited data

Results flagged for a closer look

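In 13 of 90 sets of 4 mice (30 genes in 3 groups), 1 mouse stood apart from the other mice by Dixon's criterion. For a single set, chance gives this in about 1 of 20. The sets are not independent, since the same mice recur across genes, and the share over all genes tested is not given here. The 13 are therefore not read as an excess. The third NC mouse was flagged as high for Mvk (signal 113.4, others 42.2 to 49.2), Idi1 (1277, others 255.2 to 427.4) and Sc5d (3105, others 2333 to 2415). The first MCD+HF+Met mouse was high for Mvk (132.5, others 60.3 to 69.1), Sqle (1100, others 368 to 485.1), Cyp51 (1005, others 434.4 to 523.4), Msmo1 (2185, others 691.7 to 908.1) and Sc5d (2604, others 1556 to 1688). The third MCD+HF mouse was low for Hmgcs1 (2911, others 3448 to 3488).

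Outside synthesis, the fourth MCD+HF+Met mouse was high for Abcg1 (130.5, others 86 to 91.6) and Lcat (1520, others 1177 to 1204), the second MCD+HF+Met mouse for Abcg5 (704.9, others 513.8 to 531.1) and the fourth NC mouse for Abcg8 (526.2, others 455 to 464.3). All were kept in the values reported.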

How the results depend on the processing

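Of the 18 genes called on the MCD+HF diet, 13 kept their call under every alternative run, and so did 7 of the 20 called with metformin against NC and 0 of the 1 (Npc2) called with metformin against MCD+HF. The counts of calls with each mouse left out ran from 15 to 19, from 17 to 22 and from 0 to 2. The methods' t-test at 1.5-fold called 0 genes with metformin against MCD+HF and 12 with metformin against NC, and after adjustment 0 and 10. The second brightest probe sets, held by 16 genes, gave 10 calls with metformin against NC and a synthesis median on the diet of 1.30 over the 8 genes that have one, which was 1.00 for the same 8 on the brightest; they reversed Scap on the diet (0.42) and Abcg1 with metformin against NC (0.90). The cause was not tested. Same-numbered mice of different groups had correlations of their deviations between -0.134 and 0.251. Differently numbered mice were not correlated for reference, so these values cannot tell whether the numbers pair the mice. With the replicate number as a block 19, 1 and 19 genes were called.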
